A study of Mus musculus with 4 samples.

Results

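The Id genes encode 4 small proteins, Id1, Id2, Id3 and Id4, that inhibit transcription factors of the basic helix-loop-helix (bHLH) class. They were followed on expression arrays of cultured mouse neuroepithelial cells, the dividing precursors of the forebrain. The members were every probe set whose platform annotation names a single gene that is Id1, Id2, Id3 or Id4, where a probe set is the block of short probes that together read 1 transcript. This gave 8 probe sets for 4 genes, of 45037 probe sets in all, of which 34945 name a single gene. Id1 and Id3 had 1 probe set each, and Id2 and Id4 had 3 each. All 8 passed the filter on low signal, a mean scaled signal of at least 27.3.

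The cells were taken from the telencephalon of ICR mouse embryos. The E11.5 group (2 arrays) held cells of embryonic day 11.5 that had spent 1 day in culture, and the E14.5 group (2 arrays) held cells of embryonic day 14.5 after 4 days in culture. Both groups grew in N2-supplemented DMEM/F12 with 10 ng/ml basic FGF on dishes coated with polyornithine and fibronectin, with no genetic change or further treatment named. The groups therefore differed in embryonic age and in time in culture, and these cannot be told apart. Nothing in the labels says whether the 2 arrays of a group came from separate cultures or litters, so the p-values cover the spread among these arrays alone, which may be technical. Of 7 progenitor markers looked up after the data were seen, 6 were tested, among them Nes, Sox2, Vim and Pax6, and their scaled signals were 243 or more on every array. They were not alike in the 2 groups: by the limma test described below, with log2 differences of E14.5 minus E11.5, Pax6 was lower (-0.83 ± 0.17, adjusted p = 0.0061) and Sox2 (0.60 ± 0.12, adjusted p = 0.0052) and Fabp7 (0.59 ± 0.12, adjusted p = 0.0059) were higher at E14.5, while Nes, Vim and Prom1 did not pass. The calls of Sox2 and Fabp7 were lost without the variance trend and their signs turned without scaling (-0.18 and -0.19), and Fabp7 also missed the threshold under quantile normalization (0.12), with no filter and without E14.5 replicate 2 (0.48).

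A bHLH factor binds DNA as a pair of proteins. In neural cells 1 partner is usually a broadly expressed E protein, and the other is a tissue-specific factor such as a proneural protein. Id proteins keep the helix-loop-helix part, with which they pair, but lack the basic part that contacts DNA, so an E protein bound to an Id protein is held out of use. In the developing forebrain Id proteins are known for holding precursors undifferentiated, and their genes are classical targets of bone morphogenetic protein (BMP) signals carried by SMAD proteins.

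The bases directly before the start of the Id genes are shown because regulation by SMAD and bHLH proteins acts through short motifs in such sequence. The RefSeq promoter table of build GRCm38.p6 matched 3 of the 4 genes, Id2, Id3 and Id4. The 250 bases before each start are given 5′ to 3′ in the direction of the gene. Capitals mark the E box CANNTG, which bHLH pairs bind, and 2 motifs that SMAD proteins bind, GGCGCC and CAGAC, each searched on both strands. Id2 lies on the minus strand (chr12:25096093-25096342), Id3 on the plus strand (chr4:136143572-136143821) and Id4 on the plus strand (chr13:48260866-48261115).
Id2: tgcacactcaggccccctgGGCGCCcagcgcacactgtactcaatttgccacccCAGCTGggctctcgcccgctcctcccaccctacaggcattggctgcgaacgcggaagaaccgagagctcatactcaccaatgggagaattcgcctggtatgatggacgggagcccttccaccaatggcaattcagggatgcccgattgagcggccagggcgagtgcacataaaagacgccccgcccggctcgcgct
Id3: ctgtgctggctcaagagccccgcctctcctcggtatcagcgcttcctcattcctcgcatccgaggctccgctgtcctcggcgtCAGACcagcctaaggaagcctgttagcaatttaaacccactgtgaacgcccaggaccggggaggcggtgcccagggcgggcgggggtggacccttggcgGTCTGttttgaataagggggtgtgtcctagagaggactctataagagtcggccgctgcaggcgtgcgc
Id4: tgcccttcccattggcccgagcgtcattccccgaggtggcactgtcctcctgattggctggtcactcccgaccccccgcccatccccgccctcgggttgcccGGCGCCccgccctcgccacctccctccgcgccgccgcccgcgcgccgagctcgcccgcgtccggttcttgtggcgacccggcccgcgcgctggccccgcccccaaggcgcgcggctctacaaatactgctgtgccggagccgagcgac

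The Id2 and Id4 windows each held GGCGCC once, 231 and 148 bases before the start, and the Id3 window did not hold it. Of 32851 promoter windows of the same length, 9.59% held this motif. CAGAC or its complement occurred 2 times before Id3 and in neither of the other windows, against 42.2% of all windows with at least 1 copy. An E box occurred once before Id2, 196 bases from the start, and 66.2% of all windows held one. The CCAAT box, searched on both strands, occurred 3 times before Id2, 2 times before Id4 and not before Id3 (33.8% of all windows). The GC box GGGCGG, also on both strands and counting overlapping copies, occurred 5 times before Id4, 2 times before Id3 and once before Id2 (32.7% of all windows). The GC content was 75.6% for Id4 and 62.8% for both Id2 and Id3, against a median of 52.4% over all windows. These matches describe the letters of each window and do not show binding.

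The 4 Id genes did not move together between E11.5 and E14.5 cells. Id4 fell at all 3 of its probe sets, by 3.43-fold to 3.82-fold in mean scaled signal. Id1 rose, by 1.80-fold in mean scaled signal. Id2 and Id3 had small positive differences that did not pass the test. Of the 8 Id probe sets 4 passed the test, against 23.7% of the 27022 probe sets tested. Of these, 3 were lower at E14.5 and 1 was higher, against 12.6% lower and 11.1% higher among all. The 3 lower ones all read Id4. Taken by the brightest probe set of each gene, 1 of the 4 Id genes was lower and 1 was higher. Among 12952 genes, 13.6% were lower and 14.3% higher. The test was limma's moderated fit on log2(scaled signal + 12.8), with Benjamini-Hochberg adjustment over all 27022 probe sets and a threshold of 0.05. Scaled signals are the deposited intensities multiplied by 1 factor per array to reach a common 2% trimmed mean of 174. In such cultures, fewer cells that carry a transcript and less of it in each cell cannot be told apart.

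Id4 is a member of the family expressed in dividing neural precursors. Its brightest probe set, 1423259_at, had scaled signals of 2648 and 2932 at E11.5 (replicates 1 and 2, an order kept throughout) and of 934 and 694 at E14.5. Both E14.5 arrays lay far below both E11.5 arrays, and the mean was 3.43-fold lower at E14.5. The log2 difference was -1.78 ± 0.16 (limma adjusted p = 3.7e-05), with a 95% interval from -2.12 to -1.43. Here and below, differences are E14.5 minus E11.5 on the log2 scale, each with limma's moderated standard error. This error combines the spread of arrays within groups (2 residual degrees of freedom) with a variance trend over all probe sets (7.99 prior degrees). It therefore rests largely on other probe sets, and can be smaller than the arrays of 1 probe set alone would give. The interval, like the others given, uses this error. It is that of a single probe set and is not adjusted for the number of probe sets.

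The other Id4 probe sets gave the same picture. Probe set 1450928_at read 1965 and 2397 at E11.5 and 708 and 461 at E14.5. Its difference was -1.90 ± 0.19 (limma adjusted p = 9.2e-05), with an interval from -2.33 to -1.47. Probe set 1423260_at read 1528 and 2448 at E11.5 and 612 and 428 at E14.5, and its difference was -1.89 ± 0.23 (limma adjusted p = 0.00025). The E11.5 arrays stood furthest apart at this last probe set, where replicate 2 was 1.60 times replicate 1, and the groups still did not overlap. The annotation traces all 3 probe sets to 1 source sequence, so they are repeated readings of 1 transcript and not independent measurements. Among all probe sets tested, 1.77% had a lower difference than 1423259_at, 1.49% than 1423260_at and 1.46% than 1450928_at.

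Taking each E14.5 array against each E11.5 array, the ratio for 1423259_at ran from 0.237 to 0.353. The same ratio ran from 0.193 to 0.361 for 1450928_at and from 0.175 to 0.401 for 1423260_at. Every pairing of arrays thus had Id4 lower at E14.5. As deposited, 1423259_at read 2842 and 4242 at E11.5 against 828 and 412 at E14.5. The E14.5 arrays were the dimmer ones, so a gene that is lower after scaling is lower still without it, and this is no further support. Relative to the median of all probe sets, the difference of the deposited values was -1.83.

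**Figure D1:**
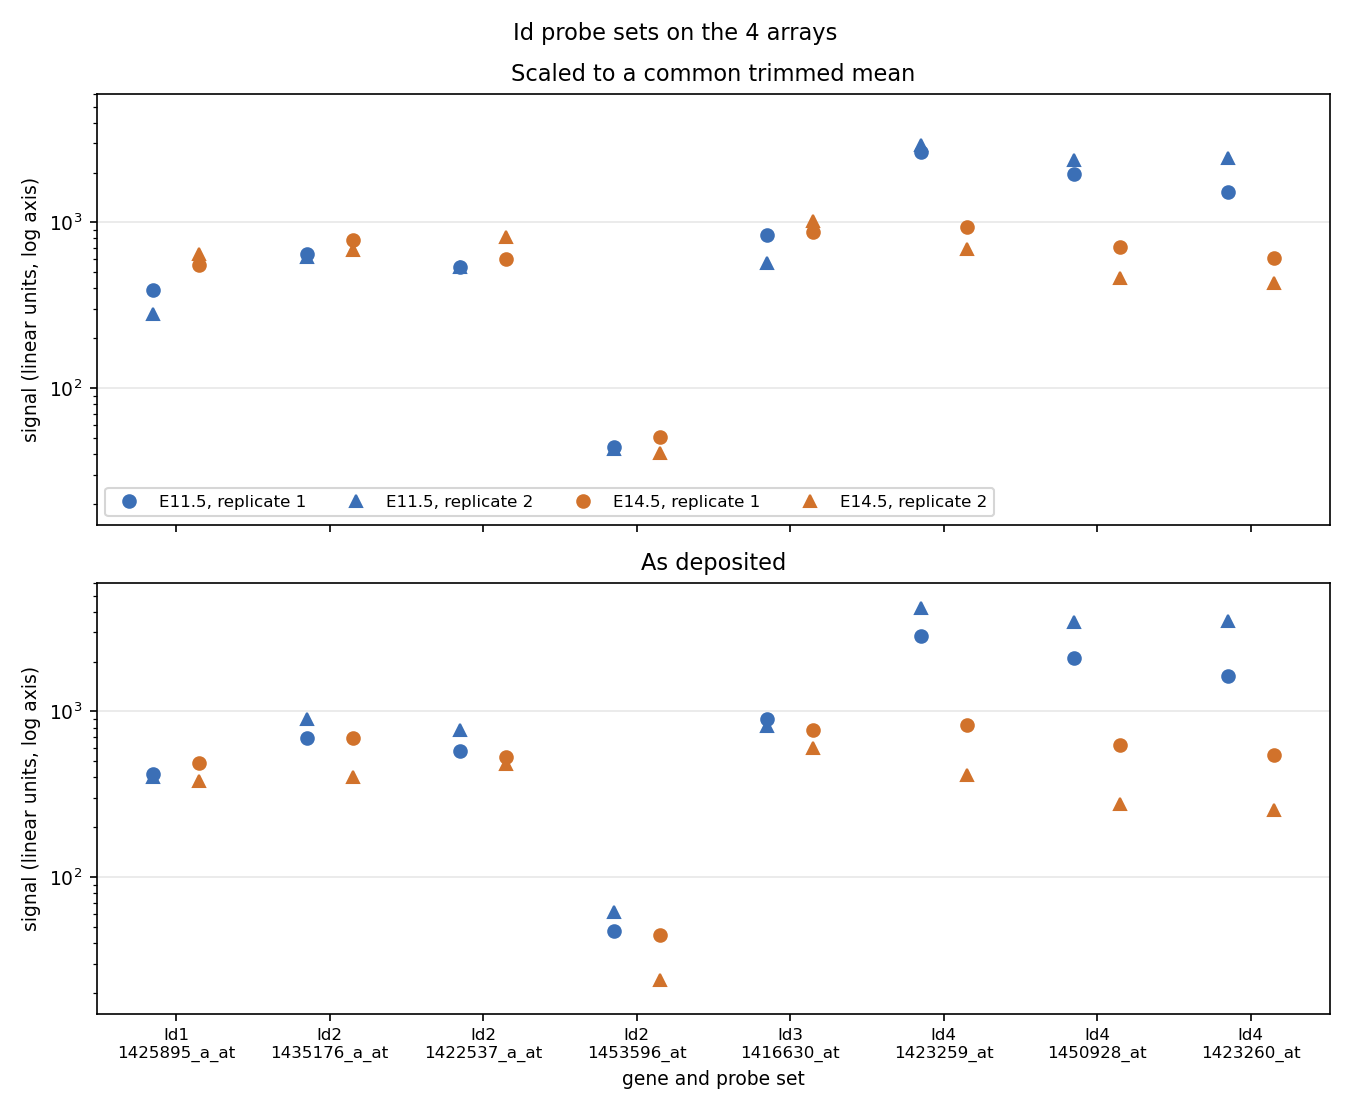
Signal of each Id probe set (horizontal axis) on each of the 4 arrays, on a log axis in linear signal units; blue stands for E11.5, orange for E14.5, circles for replicate 1 and triangles for replicate 2. The upper panel holds scaled values and the lower panel values as deposited: the 3 Id4 probe sets separate the groups in both, while Id1 separates them in the upper panel only. Heights of different probe sets are not comparable, since each has its own probe response.

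Id1 is known as an early target of BMP and SMAD signals. Its probe set, 1425895_a_at, read 388 and 279 at E11.5 and 554 and 644 at E14.5 after scaling. The E14.5 arrays were both higher, and the E11.5 arrays stood 1.39-fold apart. The difference was 0.84 ± 0.18 (limma adjusted p = 0.0079), with an interval from 0.43 to 1.24, and 7.73% of the probe sets tested had a higher one. The ratio lay between 1.43 and 2.31 over the 4 pairings of an E14.5 with an E11.5 array.

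The rise of Id1 depended on bringing the arrays to a common scale. As deposited, its signals were 417 and 403 at E11.5 and 491 and 383 at E14.5, and the groups overlapped. The difference of the deposited values was 0.08 (limma adjusted p = 0.90). There the median of all probe sets was -0.71, since both E14.5 arrays were dimmer than both E11.5 arrays, and Id1 stood 0.79 above that median. Without scaling 400 probe sets were higher and 4929 lower at E14.5, against 3012 and 3396 with it. The call of Id1 was also lost without the trend of variance on signal (limma adjusted p = 0.064), with its difference unchanged by construction.

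The scaled signal of Id1 rose in the order in which the arrays dimmed, from E11.5 replicate 2 through E11.5 replicate 1 and E14.5 replicate 1 to E14.5 replicate 2. That of Id3 had the same order, which 9.46% of the probe sets tested shared. The 3 Id4 probe sets had the opposite order, shared by 9.64%. Array brightness and group cannot be told apart, because the trimmed means as deposited were 187 and 252 at E11.5 and 154 and 103 at E14.5.

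Id3, which often accompanies Id1 in BMP responses, was read by probe set 1416630_at. Its scaled signals were 835 and 567 at E11.5 and 872 and 1013 at E14.5. The lower E14.5 array was only slightly above the higher E11.5 array, and the E11.5 arrays themselves stood 1.47-fold apart. The difference was 0.44 ± 0.18 and did not pass the test (limma adjusted p = 0.11), with an interval from 0.03 to 0.85. Without E11.5 replicate 1 the difference was 0.72 and passed (limma adjusted p = 0.0021), and without E11.5 replicate 2 it was 0.17. On the deposited values it was negative (-0.33), 0.39 above the median of all probe sets.

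Id2 is expressed in precursors and also in some neurons. Its brightest probe set, 1435176_a_at, read 645 and 618 at E11.5 and 781 and 679 at E14.5, a narrow separation. The difference was 0.20 ± 0.14 (limma adjusted p = 0.35), with an interval from -0.11 to 0.51, so that a rise of up to 0.51 on the log2 scale remained possible within this interval. Without E14.5 replicate 1 the difference was 0.10, without E14.5 replicate 2 it was 0.30, and neither passed. On the deposited values the sign turned (-0.56), which is 0.15 above the median of all probe sets.

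The other Id2 probe sets did not pass either. Probe set 1422537_a_at read 536 on both E11.5 arrays and 601 and 814 at E14.5. Its difference was 0.38 ± 0.17 (limma adjusted p = 0.13). It passed without E14.5 replicate 1, where it was 0.59 (limma adjusted p = 0.032), and was 0.16 without E14.5 replicate 2. Probe set 1453596_at was dim, with 44.1 and 42.7 at E11.5 and 50.5 and 40.3 at E14.5, and was the only Id probe set whose groups overlapped after scaling. Its difference was 0.05 ± 0.30 (limma adjusted p = 0.94), and the wide interval, from -0.61 to 0.70, leaves its direction unknown. The annotation gives 3 source sequences for the 3 Id2 probe sets, which may read different ends or forms of the transcript.

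**Figure D2:**
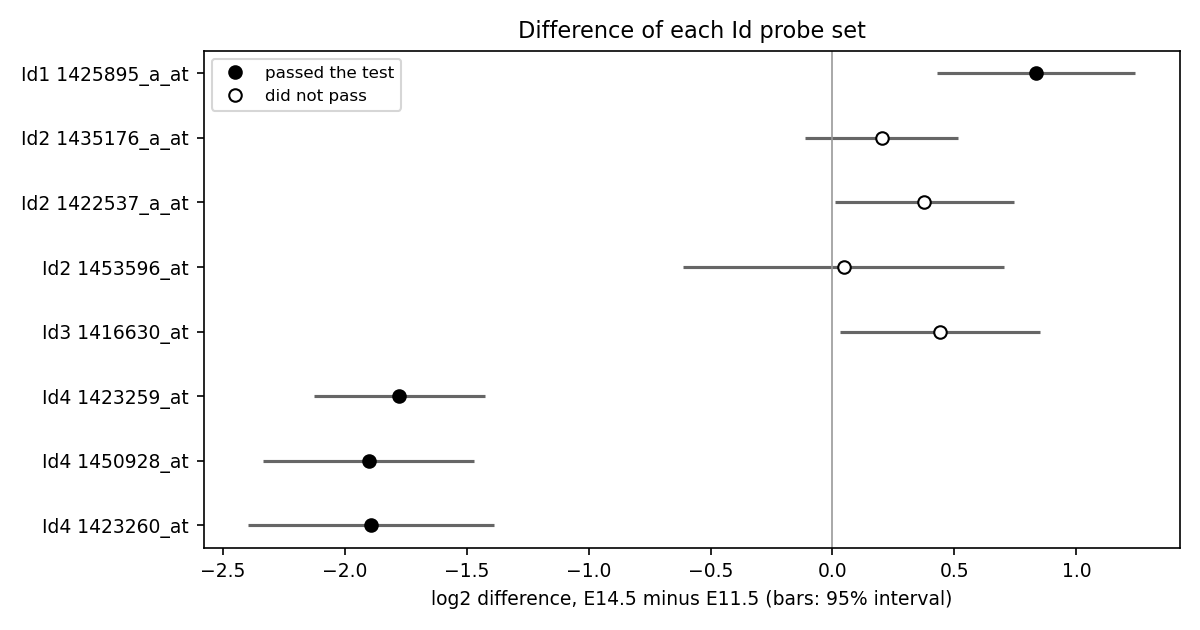
Log2 difference of each Id probe set, E14.5 minus E11.5 (horizontal axis), as points with 95% intervals from limma for single probe sets; filled points passed the test after adjustment over all probe sets. The 3 Id4 probe sets lie between -1.90 and -1.78 and Id1 at 0.84, while those of Id2 and Id3 lie between 0.05 and 0.44.

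After scaling, the E14.5 arrays were both above the E11.5 arrays at 4 of the 8 Id probe sets and both below at 3. Groups failed to overlap in these ways at 30.1% and 31.9% of all probe sets tested. As deposited, the E14.5 arrays were both below at 7 Id probe sets and overlapped at 1, that of Id1, against 66.7% of all probe sets both below. They were both above at none of the Id probe sets and at 4.48% of all.

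The ratio of signals of a pair of Id genes on the same array does not depend on the factor by which an array is scaled, apart from the constant added before log2. The ratio of a pair says nothing of which transcript was more abundant, but its change shows that the pair changed unequally. The log2 signal of Id1 minus that of Id4 was -2.73 and -3.34 at E11.5 and -0.74 and -0.11 at E14.5. It was higher on both E14.5 arrays, a change of 2.61. The same value changed by 2.22 for Id3 minus Id4, from -1.65 and -2.34 to -0.10 and 0.54. For Id2 minus Id4 it changed by 1.98, from -2.02 and -2.22 to -0.25 and -0.03. The arrays of the 2 groups did not overlap in any of these 3 pairs with Id4. All 3 use the same Id4 probe set, 1423259_at, so they are not separate observations. The share of all gene pairs without overlap was not computed.

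Among Id1, Id2 and Id3 the changes were smaller. Id1 minus Id3 changed by 0.39, from -1.08 and -0.99 to -0.64 on both E14.5 arrays. Id1 minus Id2 changed by 0.63, from -0.71 and -1.12 to -0.49 and -0.08. The groups did not overlap in either of these pairs, so a lack of overlap was not particular to the pairs with Id4. Id2 minus Id3 was -0.36 and 0.12 at E11.5 and -0.16 and -0.57 at E14.5, and its groups overlapped. With 2 arrays against 2, an exact permutation test of any single ratio cannot give a two-sided p below 0.33, so these unequal changes were not tested further.

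**Figure D3:**
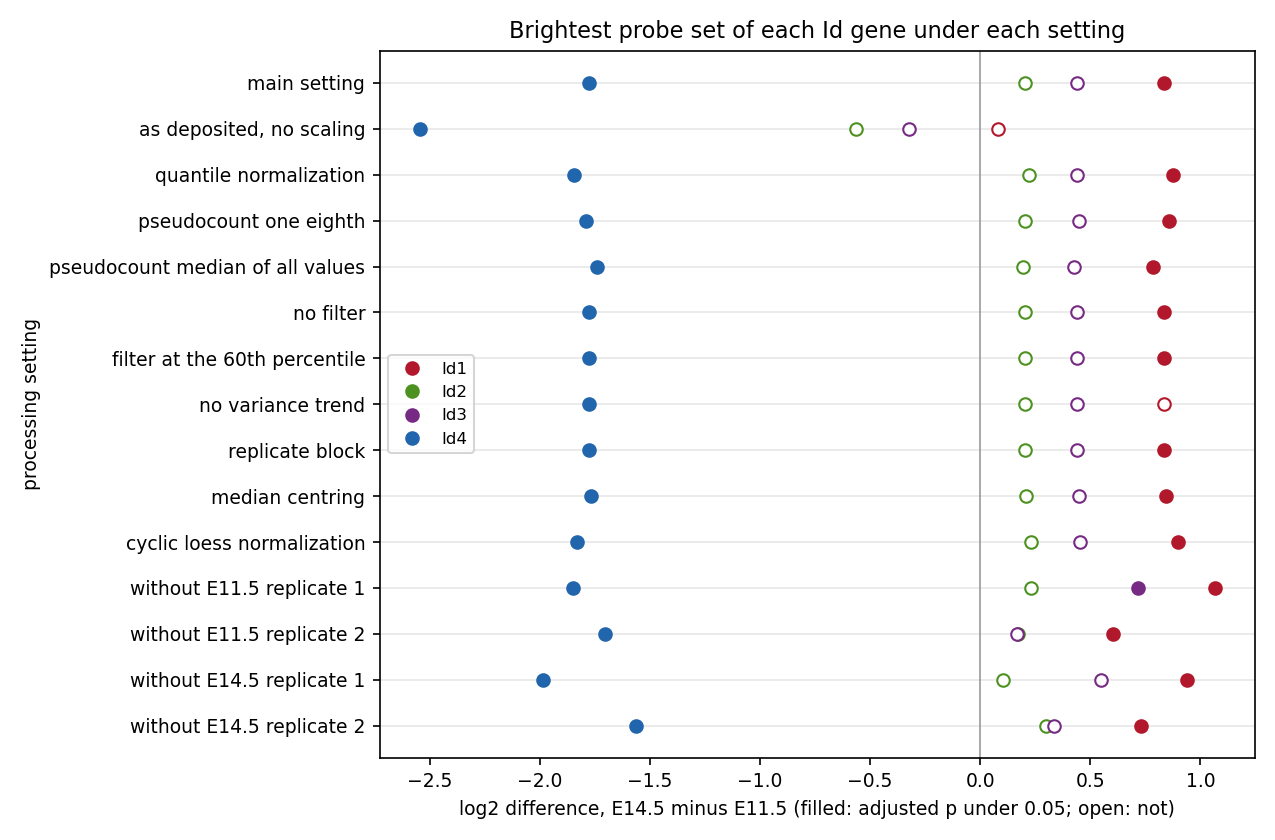
Log2 difference of the brightest probe set of each Id gene, E14.5 minus E11.5 (horizontal axis), under the main setting and 14 of 15 other processing settings (rows); filled points have an adjusted p under 0.05. Id4 was lower and filled in every row, from -2.55 to -1.56; Id1 was open in 2 rows, Id3 was filled in 1, and without scaling the points of Id2 and Id3 lay below 0.

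The genes of the E proteins, which Id proteins bind, changed in both directions. Of 3 members, all tested, 1 was higher, 1 was lower and 1 did not pass, against 14.3% higher and 13.6% lower among 12952 genes taken by their brightest probe set. These shares are the background for the counts of each list below. Tcf4, the E protein gene affected in Pitt-Hopkins syndrome, rose, with group means of 1307 and 2849 (1.11 ± 0.13). Tcf3, which encodes E12 and E47, had means of 998 and 658 (-0.58 ± 0.15, limma adjusted p = 0.018). Its call was lost without the variance trend and on leaving out replicate 1 of E11.5 (-0.41) or of E14.5 (-0.56). Tcf12, which encodes HEB, did not pass (means of 1792 and 2080; 0.21 ± 0.13). Without scaling, Tcf4 (0.34) did not pass and the sign of Tcf12 turned (-0.56).

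Proneural and neuronal bHLH factors, the partners of E proteins that Id proteins oppose, were lower where they changed. Of 13 members 8 were tested, and of these 6 were lower, 0 higher and 2 did not pass. The list median was -1.55, against 0.03 over all genes. Nhlh2 (-2.98 ± 0.35), Neurog1 (-2.35 ± 0.38), Neurod6 (-2.08 ± 0.36), Nhlh1 (-1.79 ± 0.30), Neurod1 (-1.32 ± 0.21) and Neurod2 (-1.05 ± 0.22) fell. Nhlh2 and Neurog1 had E14.5 means below the constant of 12.8 added before log2, so that constant sets how large their differences appear. Neurog2, a proneural factor of cortical precursors, did not pass (means of 323 and 318; -0.02 ± 0.17), and its sign turned under several settings, quantile normalization among them (0.02). Atoh1 (0.29 ± 0.36) did not pass either, and its sign turned without scaling (-0.22).

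The bHLH factors of the oligodendrocyte lineage moved the other way. Of 3 members 2 were tested and both rose, Olig1 from 401 to 8240 (4.32 ± 0.15) and Olig2 from 219 to 3243 (3.84 ± 0.18). Olig3 was under the filter, with at most 12.8 on any array.

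Hes and Hey proteins are repressors of the bHLH class that bind DNA themselves, unlike Id proteins, and several of them carry Notch signals. Their list also holds other repressors of the class, Bhlhe40 among them. Of 12 members of this list 6 were tested, of which 2 were higher, 0 lower and 4 did not pass (list median 0.21). Hes5 rose from 793 to 2775 (1.81 ± 0.16) and Hey1 from 404 to 658 (0.70 ± 0.18, limma adjusted p = 0.016). The call of Hey1 was lost without E11.5 replicate 1 (0.46) and without the variance trend, and without scaling its sign turned (-0.06) and Hes5 did not pass (1.04). Hes6 (-0.29 ± 0.16), Bhlhe40 (0.54 ± 0.21), Hes1 (-0.24 ± 0.17) and Heyl (-0.11 ± 0.33) did not pass. Bhlhe40 passed without E14.5 replicate 2 (0.85), and its sign turned without scaling (-0.19). The sign of Heyl turned without E14.5 replicate 1 (0.22).

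BMP signals are the best known inducers of Id transcription, and no change of their ligands passed the test. Of 7 ligand genes 3 were tested: Bmp7 (means of 149 and 180; 0.22 ± 0.23), Bmp5 (55.4 and 37.1; -0.51 ± 0.38) and Bmp4 (34.0 and 21.5; -0.54 ± 0.43). The sign of Bmp7 turned without E14.5 replicate 2 (-0.11) and without scaling (-0.51).

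Of 11 BMP receptor and SMAD genes 10 were tested, with 3 higher, 2 lower and 5 that did not pass (list median 0.17), against 14.3% higher and 13.6% lower among all genes. The type I receptor Bmpr1b rose from 97.7 to 493 (2.19 ± 0.17), and all 3 of its tested probe sets passed. The type I receptor Bmpr1a (865 to 1225; 0.49 ± 0.14, limma adjusted p = 0.029) and the type II receptor Bmpr2 (1046 to 1654; 0.66 ± 0.12, limma adjusted p = 0.0038) were higher. The other Bmpr1a probe sets did not pass, with differences from 0.21 to 0.50. The other Bmpr2 probe sets, which were dimmer, had negative differences (-0.17 and -0.40) and did not pass. With the probe sets of each gene averaged, 1 gene of this list was higher rather than 3. Bmpr1a lost its call with no filter, without the variance trend and on leaving out E14.5 replicate 2 (0.35), Bmpr2 lost its call without the trend, and both signs turned without scaling (-0.28 and -0.12). The type II receptors Acvr2b (-1.33 ± 0.16) and Acvr2a (-0.55 ± 0.15) were lower, and Acvr2a lost its call with no filter, without the trend and on leaving out E14.5 replicate 1 (-0.39). By their brightest probe sets, the signal carriers Smad4 (0.05 ± 0.13), Smad1 (-0.31 ± 0.14) and Smad5 (0.29 ± 0.14) did not pass. The dimmer Smad5 probe sets had negative differences. The dimmest was lower and passed (177 to 77.5; -1.06 ± 0.23, limma adjusted p = 0.0089), and the other did not pass (-0.27 ± 0.19). The direction of Smad5 therefore depended on the probe set. The receptor Acvr1 (-0.51 ± 0.20) did not pass either. Acvr1 passed on leaving out replicate 1 of E11.5 (-0.67) or of E14.5 (-0.70), and without scaling (-1.24). The sign of the brightest Smad5 probe set turned without scaling (-0.48). That of Smad4 turned there (-0.72) and without E14.5 replicate 2 (-0.06).

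BMP inhibitors and feedback targets include genes that, like Id1, respond to BMP signals. Of 11 members 10 were tested, of which 1 was higher, 1 was lower and 8 did not pass (list median -0.23). The extracellular BMP regulator Bmper rose from 122 to 546 (2.04 ± 0.19). The secreted antagonist Fst fell from 79.5 to 19.7 (-1.66 ± 0.43, limma adjusted p = 0.018), a call that was lost without a filter and without the variance trend. The ubiquitin ligases Smurf2 (-0.14 ± 0.16) and Smurf1 (-0.34 ± 0.16) and the membrane protein Crim1 (-0.54 ± 0.22) did not pass, though Crim1 passed without E11.5 replicate 2 (-0.77) and without scaling (-1.24). The feedback inhibitors Smad6 (-0.22 ± 0.33), Smad7 (-0.14 ± 0.26) and Bambi (-0.46 ± 0.26), which are themselves BMP targets, did not pass either. Leaving out E14.5 replicate 1 turned the sign of Smad7 (0.06), and leaving out E14.5 replicate 2 turned that of Smad6 (0.0024).

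Among 6 genes whose products act on the turnover of Id proteins, all tested, 1 was lower and 5 did not pass (list median -0.30). Usp1, a deubiquitinase that stabilises Id proteins, fell from 1689 to 846 (-0.99 ± 0.14). Cdc20 (-0.30 ± 0.13), Cops5 (-0.20 ± 0.14), Huwe1 (-0.36 ± 0.14) and Smurf2, which is also on the list before, did not pass. Cdc20 was lower under quantile normalization (-0.40) and under cyclic loess normalization (-0.39), and the sign of Smurf2 turned without E14.5 replicate 1 (0.02). With the probe sets of each gene averaged, 2 genes of this list were lower rather than 1. The protein levels of the Id family were not measured.

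**Figure D4:**
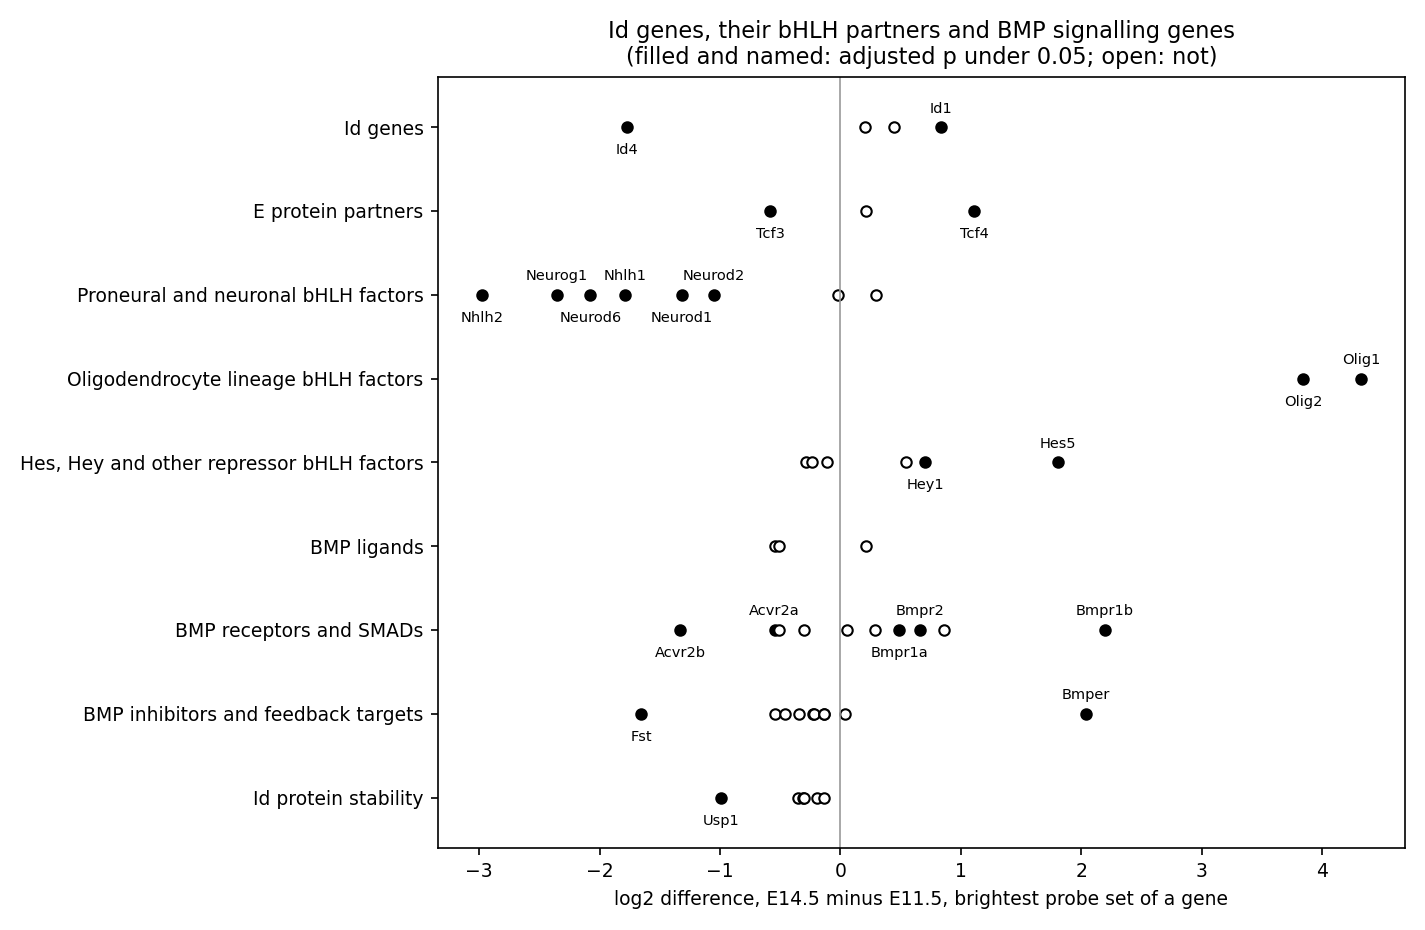
Log2 difference, E14.5 minus E11.5 (horizontal axis), of the brightest probe set of each tested gene in the Id family and in 8 lists of bHLH partners, BMP signalling genes and genes of Id protein turnover (rows); filled and named points passed the test. The proneural and neuronal factors that passed lie between -2.98 and -1.05, on the side of Id4, and Olig1 and Olig2 lie at 4.32 and 3.84.

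Markers of several cell types differed between the groups together with the Id genes. Of 13 neuronal markers 12 were lower, and their summed scaled signal was 17176 to 18059 on the E11.5 arrays and 5304 to 5561 on the E14.5 arrays. Of 10 astrocyte markers 9 were higher, with sums of 5616 to 6078 and 17616 to 21815. Without scaling 5 astrocyte markers were higher and 1 was lower. The member that did not pass, Gja1, which encodes connexin 43, had a negative difference (-0.60 ± 0.24), and it was called lower without scaling (-1.37), without E11.5 replicate 2 (-0.83) and on leaving out E14.5 replicate 1 (-0.99). These Gja1 values are those of its brightest probe set. Some dimmer Gja1 probe sets were lower and passed (-0.98 ± 0.23, limma adjusted p = 0.011, and -0.87 ± 0.27, limma adjusted p = 0.040). The others did not pass (-0.72 ± 0.25, -0.38 ± 0.27 and 0.02 ± 0.20). With the probe sets of each gene averaged, 1 astrocyte marker was lower rather than 0. All 7 markers of oligodendrocyte precursors were higher, from 682 to 902 at E11.5 to 18286 to 20205 at E14.5. Of 10 microglial markers 9 were tested and 8 were higher, with sums of 251 to 340 and 1825 to 1852. Of 9 meningeal markers 7 were tested and 3 were lower, with sums of 1219 to 1221 and 593 to 671. Endothelial cells are known for high Id1 and Id3, and of 12 endothelial markers 5 were tested, 2 higher and 1 lower, with sums of 256 to 354 and 376 to 424. The higher ones were Plvap (means of 10.0 and 91.2; 2.23 ± 0.36, limma adjusted p = 0.0016) and Ramp2 (65.3 and 158; 1.10 ± 0.25, limma adjusted p = 0.0095), and Ramp2 did not pass without scaling (0.41) or without E14.5 replicate 2 (0.81). The E11.5 mean of Plvap lay below the constant of 12.8 added before log2, so that constant sets how large its difference appears. Egfl7 was lower (-1.26 ± 0.34, limma adjusted p = 0.022), a call lost on leaving out E11.5 replicate 1 (-0.96) or E14.5 replicate 2 (-0.85), with no filter and without the variance trend. The other Egfl7 probe sets did not pass (0.33 ± 0.28 and -0.39 ± 0.25). With the probe sets of each gene averaged, 0 endothelial markers were lower. Kdr (-0.59 ± 0.30) and Eng (0.45 ± 0.33) did not pass. Without scaling Kdr was lower (-1.24) and the sign of Eng turned (-0.16). The defining genes Pecam1 and Cdh5 were among the 7 under the filter, with at most 11.7 and 30.1 on any array. Of these 7, Cdh5 (30.1 and 13.5 at E11.5, 1.5 and 5.8 at E14.5) read lower on both E14.5 arrays. So did Cldn5 (55.4 and 24.0, then 15.2 and 9.5) and Emcn (31.0 and 31.9, then 10.0 and 5.5). The groups of the others overlapped. No marker was listed at 0 on any array. The part of these cell types in the Id values was not tested.

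For each Id gene, the genes with the most similar profile were taken as those with the smallest root mean square difference over the 4 arrays, after centring log2 signals on each gene's mean, among 12274 named genes. Npy, which encodes neuropeptide Y, was nearest to Id4 (0.022), with scaled signals of 647 and 717 at E11.5 and 227 and 159 at E14.5. Thsd7a (0.051) and Ppip5k2 (0.061) followed. Nearest to Id1 were Trim16 (0.021), Fam13a (0.037) and Tnip1 (0.037), and of these Trim16 (0.84 ± 0.26) and Tnip1 (0.81 ± 0.20) passed the test. Nearest to Id3 were Snord104 (0.026), Smc2os (0.030) and Top3b (0.031), and nearest to Id2 were Canx (0.011), Dct (0.012) and Fam32a (0.013), of which none passed. Likeness over 4 arrays in 2 groups is a weak description, as many genes share so short a profile.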

How the data were processed

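Total RNA was copied with a T7 oligo-dT primer, labelled with biotin and hybridised, per the labels. Each array has 1 deposited intensity per probe set, on a linear scale, from GCOS per the submitters' processing notes, with no version or settings stated in the labels or files used. Of 45101 probe sets, 64 controls were set aside. Symbols were checked through Entrez identifiers in a RefSeq table, which updated 0 and left 204 single-gene probe sets unmatched.

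Arrays were multiplied by 0.932, 0.691, 1.13 and 1.68 (E11.5 replicates 1 and 2, then E14.5) to a common 2% trimmed mean. Testing was limited to probe sets whose mean reached the 40th percentile (27.3). Before log2, a constant of 12.8, the 25th percentile of scaled signals, was added, which shrinks differences of dim genes. The fit was limma 3.58.1 in R 4.3.3 with a variance trend (2 residual and 7.99 prior degrees of freedom), tested on simulated data. A gene was represented by its brightest tested probe set. Across probe sets, log2 signals of 2 arrays correlated at r = 0.969 or more within groups and 0.909 or less between them.

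The text names all Id probe sets, from each list the members that passed and up to 4 that did not, by signal, and the 3 nearest genes of each Id gene. Lists of at most 4 members are named whole. Lists of cell type markers are given by counts. Smad6, Smad7, Pecam1, Cdh5, Cldn5, Emcn, Kdr, Eng, Plvap, Ramp2, Egfl7, Gja1 and the progenitor markers were named after their values were seen. The same holds for the dimmer probe sets given for Smad5, Bmpr1a, Bmpr2, Egfl7 and Gja1. The members and lists were chosen with earlier results of these data known, so their counts are descriptions and were given no set test. Alternatives covered scaling, the constant, the filter, the variance trend, the block, averaging of probe sets and leaving out each array. Median centring and cyclic loess were added after the data were seen.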

Additional observations from a re-analysis of the deposited data

How the results depend on the processing

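Id4 stayed lower and past the threshold under all 15 alternatives. It was -1.99 to -1.56 in the 14 that compare scaled or normalized arrays (limma adjusted p at most 0.0076, reached without the variance trend). Without scaling it was -2.55, a value to which the dimmer E14.5 arrays added, so it is no further support. Relative to the median of all probe sets it was then -1.83. Without scaling, Id1 was 0.079 and not called, so that 0 Id probe sets were higher, and Id2 (-0.56), Id3 (-0.33) and the Id2 probe sets 1422537_a_at (-0.39) and 1453596_at (-0.55) turned negative, as the median of all probe sets moved by -0.70; 400 probe sets were then higher. Without the variance trend Id1 stayed at 0.84 but missed the threshold, again leaving 0 Id probe sets higher, and 1919 probe sets were higher and 2097 lower in all. Leaving out 1 array gave 0.17 to 0.72 for Id3, 0.60 to 1.07 for Id1 (always called), -0.081 to 0.17 for 1453596_at, and 1 to 2 Id probe sets higher; the lone array of a group is then assumed to vary like the others. Arrays with the same number did not deviate together (r = 0.0041 across probe sets), and the replicate block changed no call of an Id gene (Id1 adjusted p = 0.0015, Id3 adjusted p = 0.067) but called Bhlhe40 higher (adjusted p = 0.043), so that 3 rather than 2 Hes and Hey list members were higher, and Gja1 lower (adjusted p = 0.0051); it gave 3312 probe sets higher and 3861 lower. Median centring (0.84) and cyclic loess (0.90) kept Id1 called. Where no value above shows a cause, the cause was not tested. The number of arrays, 2 per group, limits every value, and Id2 probe set 1453596_at was not tested under the filter at the 60th percentile.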
